A study of Homo sapiens with 4 samples.

Results

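The genes described here belong to 6 families of solute carriers, SLC1, SLC6, SLC7, SLC36, SLC38 and SLC43, which hold most of the amino acid transporters of the human plasma membrane and lysosome. Members were taken by gene symbol alone, without SLC7A11. The rule used no measured value, but it was set with earlier results of these data known. The rule took 56 of the 20323 genes in the table. Of these, 37 had counts in at least 1 of the 4 libraries and 19 had none. A mean level of at least 1 TPM (a unit scaled to gene length and to the library total) over the 4 libraries was reached by 23 members, and 22 of them reached 5. RNA-seq was made from mRNA of HT-1080, a human fibrosarcoma line kept in DMEM with 10% serum. The control genotype, sgNC, has 2 libraries, called control 1 and control 2. The genotype sgPKA, a guide for protein kinase A, has 1, and so has sgALKBH5, a guide for the RNA demethylase that removes N6-methyladenosine. All cells carry a guide, the labels give no treatment, and the labels do not say which gene of protein kinase A was targeted or whether the guided cells were clones or pools. The series title places both genes in the control of ferroptosis, an iron-dependent cell death driven by lipid peroxidation.

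Amino acid carriers differ in substrate and in the gradient they use. SLC1 and most SLC6, SLC38 and SLC36 proteins couple uptake to sodium or protons, whereas SLC7 light chains exchange one amino acid for another and need a heavy chain, SLC3A2 or SLC3A1, to reach the membrane. Several members carry other solutes, so the family name is not a list of amino acid carriers only: SLC6A8 imports creatine, SLC6A6 taurine, and SLC43A3 purine nucleobases. Cells short of amino acids raise transcription of many carriers through ATF4, a transcription factor that binds the composite DNA element read here as TGATGNAA.

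Sequences from the promoters of 5 members are shown first because they were the members with that element near a start site, and they are referred to again beside their levels. The RefSeq promoter windows for GRCh38.p14, from 250 bases before to 50 after a transcript start, gave 35 windows for 19 of the 23 members with a mean TPM of at least 1. SLC43A3, SLC6A15, SLC6A6 and SLC7A2 were not matched. The element was searched on both strands and is in capitals. Each sequence reads 5′ to 3′ along the gene's own strand, with up to 25 bases on either side.
SLC1A3 (chr5:36596343-36596400, plus strand): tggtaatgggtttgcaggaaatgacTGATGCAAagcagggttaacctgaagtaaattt
SLC1A4 (chr2:64989367-64989424, plus strand): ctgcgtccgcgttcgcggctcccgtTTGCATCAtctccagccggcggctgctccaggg
SLC1A5 (chr19:46784879-46784936, minus strand): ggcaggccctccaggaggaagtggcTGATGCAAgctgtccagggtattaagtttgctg
SLC38A1 (chr12:46266488-46266545, minus strand): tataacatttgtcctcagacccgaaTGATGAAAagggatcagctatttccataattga
SLC7A1 (chr13:29595659-29595706, minus strand): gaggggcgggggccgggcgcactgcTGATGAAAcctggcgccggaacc
The element began 220 bases before the start in SLC1A3, 97 before it in SLC1A5, 7 before it in SLC1A4 and 4 before it in SLC38A1, and at base 8 after it in SLC7A1. In SLC1A4, SLC1A5 and SLC38A1 the start used lay inside the gene and not at its outer 5′ end. The levels given here are per gene and not per transcript start. In SLC1A4 the element lay on the reverse strand. It was in 5 of the 35 windows (14.3%) and in 3.62% of the 35116 windows of all genes. The windows of all genes have no limit on TPM, so the 2 sets are unlike. Without that limit 29 members were matched, with 48 windows, and 5 of these members held the element. The cyclic AMP response element TGACGTCA, bound by the protein kinase A substrate CREB, was in 0 of the 35 and in 1.85% of all windows. The E-box CACGTG, bound by MYC and by the lysosomal regulator TFEB among others, was in 6 of the 35 (17.1%) and in 7.26% of all; these 6 belonged to SLC1A5, SLC36A1, SLC38A7, SLC43A1, SLC7A5 and SLC7A7. Without the limit on TPM, 10 of the 29 members matched held the E-box. None of the 5 stretches printed holds the E-box. Such matches describe letters in a window and no binding was measured.

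The libraries held 14050867 to 25937347 counts. PRKACA, the catalytic subunit alpha of protein kinase A, was at 60.5 and 70.1 TPM in the controls, 10.6 in sgPKA and 70.9 in sgALKBH5. ALKBH5 had 80.2 and 67.6 TPM in the controls, 67.1 in sgPKA and 37.5 in sgALKBH5. GPX4, the lipid hydroperoxide reductase of the series title, was at 419 and 464 TPM in the controls, 269 in sgPKA and 482 in sgALKBH5. Of 8 mesenchymal markers 6 had a mean TPM of at least 1, with a sum of 7960 to 10553 TPM per library, most of it VIM at 6730 to 7853. The others were less even: FN1 was at 1030 and 118 TPM in the controls, 220 in sgPKA and 745 in sgALKBH5, and SPARC at 2215 and 909 in the controls, 635 in sgPKA and 1742 in sgALKBH5. In sgPKA 1 of the 6 was above both controls and 3 below, with COL1A1 past 2-fold, beside 50.3% and 26.9% of all genes. In sgALKBH5 3 were above and 0 below, beside 39.1% and 27.5% of all genes. EPCAM was at 0 in all libraries. The 4 blood cell markers summed to at most 0.275 TPM and 3 endothelial markers to at most 1.06. The 4 neuronal markers summed to 217 and 255 TPM in the controls, 317 in sgPKA and 178 in sgALKBH5. Most of that was TUBB3, at 215 and 254 TPM in the controls, 317 in sgPKA and 176 in sgALKBH5. KRT8, a keratin of simple epithelia, was at 686 and 546 TPM in the controls, 209 in sgPKA and 395 in sgALKBH5. The 6 epithelial markers summed to 1396 and 1030 TPM in the controls, 480 in sgPKA and 839 in sgALKBH5. The 3 of them with a mean TPM of at least 1 were below both controls in both knockouts, beside 26.9% of all genes in sgPKA and 27.5% in sgALKBH5. The part of these markers in the differences of the carriers was not tested. The controls were at least as far from each other as each knockout was from its nearer control. Over genes, the standard deviation of the log2 TPM difference was 0.585 between the controls, 0.390 for sgALKBH5 against control 1 and 0.547 for sgPKA against control 2.

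A small number of carriers made up most of the transporter mRNA. SLC1A5, SLC7A5, SLC43A3, SLC6A8 and SLC38A2 together held 69.5% and 72.8% of the summed TPM of all members in the controls, 71.7% in sgPKA and 62.9% in sgALKBH5. The sum over all members was 1285 and 1244 TPM in the controls, 1579 in sgPKA and 1072 in sgALKBH5. Without SLC43A3 it was 1155 and 1012 TPM in the controls, 1273 in sgPKA and 1067 in sgALKBH5, so that the sgALKBH5 sum then lay between the controls. By family, the 23 members with a mean TPM of at least 1 were 3 of 7 in SLC1, 4 of 19 in SLC6, 5 of 12 in SLC7, 2 of 4 in SLC36, 6 of 11 in SLC38 and 3 of 3 in SLC43.

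**Figure D1:**
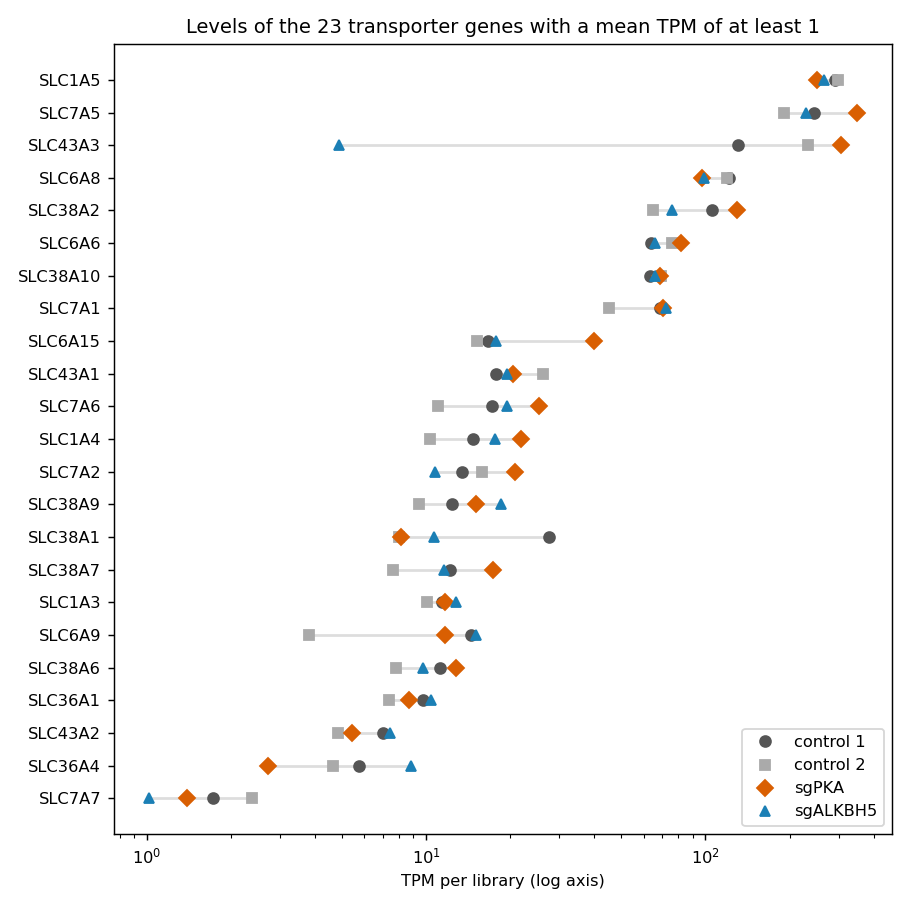
Level of each of the 23 members with a mean TPM of at least 1 (rows, ordered by mean) in TPM on a log axis, with 1 point per library. For most genes the 4 points lie close together, while SLC43A3 is at 4.86 TPM in sgALKBH5 and between 130 and 307 in the other libraries.

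No member passed the edgeR test across genes, and neither did any other gene. PRKACA in sgPKA, at a log2 fold change of -2.77 ± 0.29 (SE), and ALKBH5 in sgALKBH5, at -1.05 ± 0.23, were not called by it either. A missing call is therefore no sign that a level was unchanged. The quasi-likelihood test of edgeR, whose spread came from the 2 controls alone, tested 27 of the 37 members with counts. It called 0 of them in sgPKA against the controls, 0 in sgALKBH5 against the controls and 0 between the knockouts, against a background of 0.0% (0 of 13061 genes) in each of the 3 comparisons. At an unadjusted p under 0.05 there were 2 members in sgPKA (SLC1A1 and SLC6A15) and 1 in sgALKBH5 (SLC43A3), beside 1184 and 369 of all genes tested. The lowest adjusted p of a member by edgeR was 0.527 in sgPKA and 0.998 in sgALKBH5. DESeq2 called 0 members in sgPKA (background 0.971%, 116 of 11945 genes), SLC43A3 in sgALKBH5 (background 0.311%, 40 of 12881 genes) and SLC43A3 between the knockouts (background 2.73%, 318 of 11632 genes). Each knockout had 1 library, so the differences have no replicate check, and p-values here compare these libraries. Whether the control libraries came from separate cultures is not stated in the labels.

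A second rule, with no test, counted genes at least 2-fold from both controls in the same direction on the log2(TPM + 1) scale. It took 1 of the 23 members above the controls in sgPKA, SLC6A15, against a background of 1.04%, and 0 below, against 1.39%. Those shares are 121 and 162 genes, and 73 and 198 after the TPM values were rescaled by TMM factors, which left SLC6A15 past the rule. In sgALKBH5 it took 0 above, against 1.03%, and 1 below, SLC43A3, against 0.482%. The controls set against each other gave 2 members at least 2-fold apart, SLC38A1 and SLC6A9, which is 8.70% of the members beside 6.41% of all genes.

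Members were also counted by their position relative to both controls, beside the same count over all genes. In sgPKA 13 of 23 members (56.5%) were above both controls in TPM, against 50.3% of all genes, and 4 (17.4%) were below both, against 26.9%. The 4 below were SLC1A5, SLC36A4, SLC6A8 and SLC7A7. In normalised counts instead of TPM, 11 members were above both, against 39.7% of all genes, and 6 below, against 38.3%. The median difference in log2(TPM + 1) was 0.33 for the members and 0.15 for all genes, and the median log2 fold change of edgeR was 0.12 and -0.03.

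In sgALKBH5 10 of 23 members (43.5%) were above both controls in TPM, against 39.1% of all genes, and 5 (21.7%) were below both, against 27.5%. The 5 below were SLC1A5, SLC43A3, SLC6A8, SLC7A2 and SLC7A7. In normalised counts 7 were above, against 33.0%, and the 5 below were the same genes, against 34.3%. The median difference in log2(TPM + 1) was 0.08 for the members and 0.05 for all genes. SLC1A5, SLC6A8 and SLC7A7 were thus below both controls in TPM in both knockouts, which share those controls. The share of all genes with this pattern is not given here. In normalised counts SLC7A7 was between the controls in sgPKA.

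**Figure D2:**
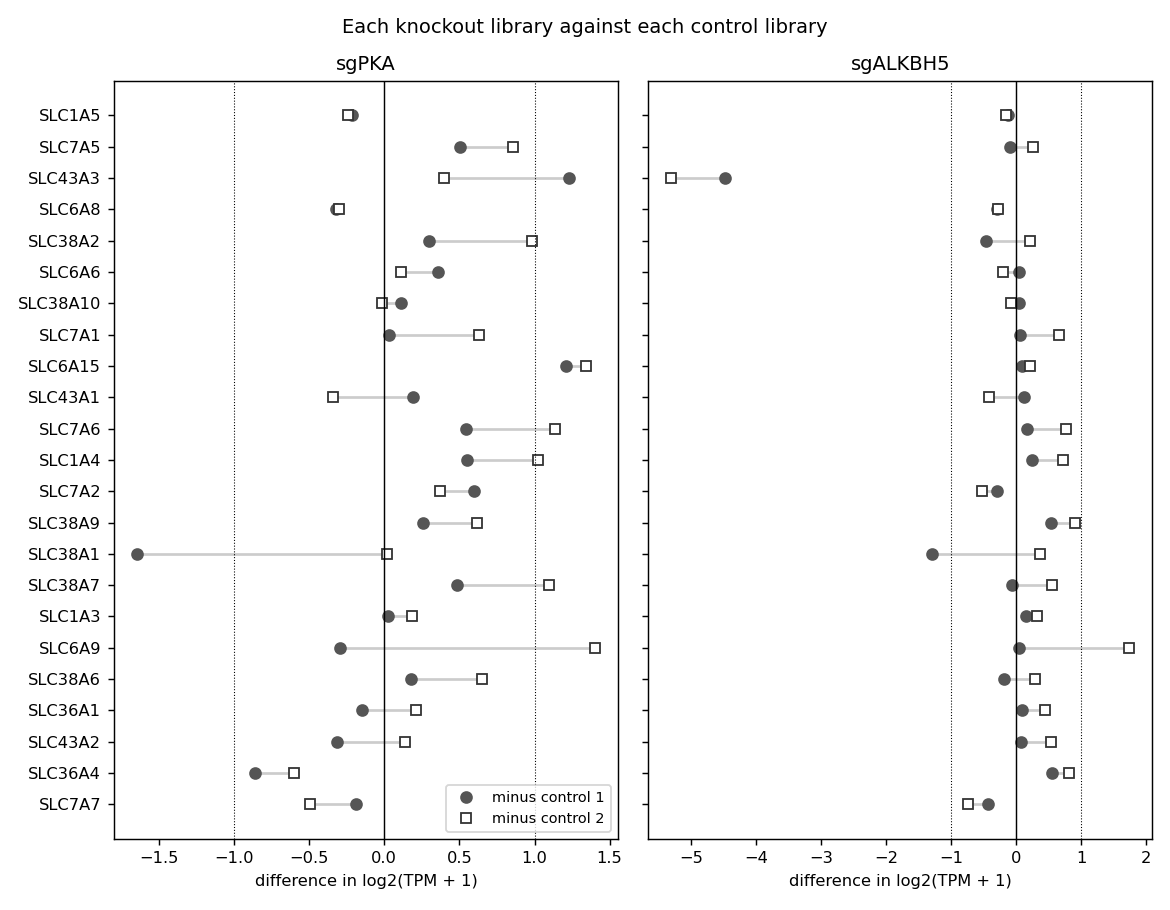
Difference in log2(TPM + 1) between each knockout library and each control library for the 23 members, with 1 panel per knockout and 1 symbol per control. SLC6A15 is past a difference of 1 from both controls in sgPKA, and SLC43A3 is past -1 from both in sgALKBH5; the symbols of SLC38A1 and SLC6A9 stand far apart because the controls differ.

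SLC43A3, a carrier of purine nucleobases such as adenine and guanine, had the widest range of any member. The gene (ENSG00000134802) lies at chr11:57406954-57427580 of GRCh38.p14. Its level was 130 and 232 TPM in the controls, 307 in sgPKA and 4.86 in sgALKBH5. It was the third, second and second most abundant member in control 1, control 2 and sgPKA, and rank 22 in sgALKBH5. The sgALKBH5 level was 26.8-fold below control 1 and 47.8-fold below control 2, whereas the controls were 1.78-fold apart. In RNA from many cells, fewer expressing cells and less RNA per cell cannot be told apart, here or for any other gene. The deposited counts were not whole in control 1 and sgPKA (2907.88 and 5173.94), which means that a few reads there were assigned in part. In sgALKBH5 the gene had 132 counts in the deepest library, and the control mean in normalised counts (CPM, scaled to the library total) was 45.2-fold higher, with a counting interval of 38.1 to 54.0 (exact 95% Poisson limits of the 132 counts, counting error only). The log2 fold change was -5.50 ± 0.61 (SE) with an adjusted p of 0.998 by edgeR and 3.51e-32 by DESeq2. In sgPKA it was 0.56 ± 0.44 (SE), with an adjusted p of 0.613 by edgeR. Its share of the summed transporter TPM was 10.1% and 18.7% in the controls, 19.4% in sgPKA and 0.454% in sgALKBH5.

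The genes around SLC43A3 on chromosome 11, picked after its value was seen, had no comparably low value in sgALKBH5. RTN4RL2, a receptor gene next to it, was at 36.2 and 33.7 TPM in the controls, 29.7 in sgPKA and 38.7 in sgALKBH5. SLC43A1, a large neutral amino acid carrier of the same family and the next gene along, was at 17.8 and 26.2 TPM in the controls, 20.5 in sgPKA and 19.4 in sgALKBH5. TIMM10, SSRP1, TNKS1BP1 and UBE2L6, further away, were at 118, 396, 78.0 and 97.9 TPM in control 1 and at 115, 343, 79.7 and 69.1 in control 2. In sgALKBH5 the same genes were at 109, 390, 89.9 and 111 TPM. PRG2, on the other side of SLC43A3, was at most at 0.613 TPM, and APLNR, P2RX3, PRG3, SMTNL1 and SERPING1 were at or near 0. The low level in sgALKBH5 was therefore seen at SLC43A3 and at none of the 6 neighbours in this stretch with a mean TPM of at least 1.

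**Figure D3:**
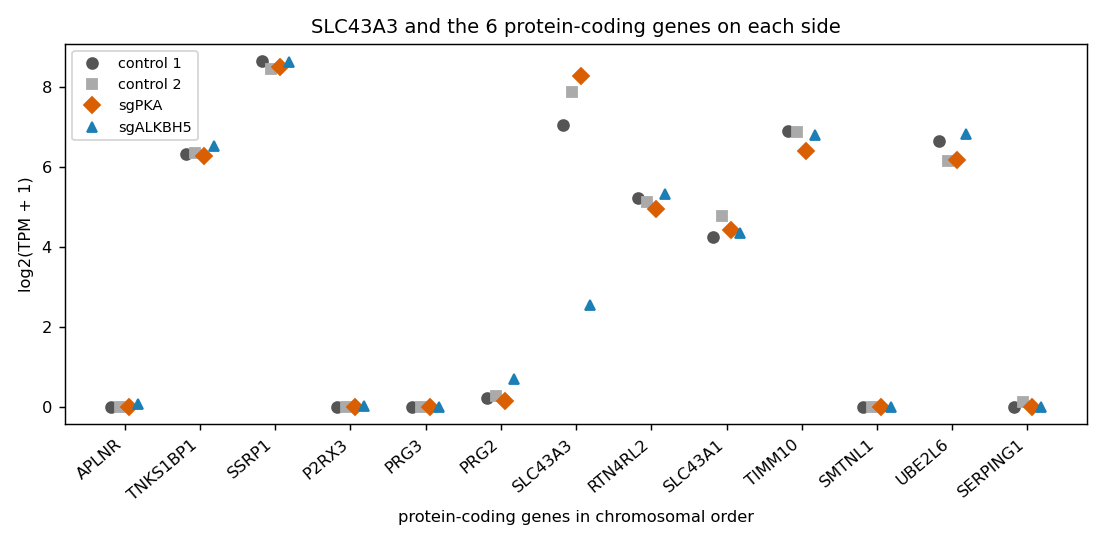
Level in log2(TPM + 1) of SLC43A3 and the 6 protein-coding genes on each side of it on chromosome 11, in chromosomal order, with 1 symbol per library. The sgALKBH5 symbol of SLC43A3 stands far below the other 3 libraries, and for the neighbouring genes the 4 symbols lie together.

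SLC6A15, a sodium-coupled carrier of branched-chain amino acids and proline known mainly from brain, was the member furthest above the controls in sgPKA. The gene (ENSG00000072041) lies at chr12:84859491-84912799. It was at 16.7 and 15.2 TPM in the controls, 39.9 in sgPKA and 17.8 in sgALKBH5. The sgPKA library stood 2.39-fold and 2.63-fold above the controls, which were close to each other, and the sgALKBH5 library lay near them. The log2 fold change in sgPKA was 1.12 ± 0.21 (SE), with an adjusted p of 0.527 by edgeR and 0.151 by DESeq2. SLC6A15 kept its side of the 2-fold rule under each setting run, including without either control.

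SLC7A5, SLC7A6 and the heavy chain SLC3A2 had their highest levels in sgPKA. SLC7A5 (LAT1, chr16:87830023-87869507), the exchanger that brings leucine and other large neutral amino acids into the cell, was at 245 and 192 TPM in the controls, 349 in sgPKA and 229 in sgALKBH5. It was the most abundant member in sgPKA, and its log2 fold change there was 0.49 ± 0.22 (SE), with an adjusted p of 0.531 by edgeR. SLC7A6 (y+LAT2), which exchanges arginine for neutral amino acids, was at 17.1 and 11.0 TPM in the controls, 25.4 in sgPKA and 19.5 in sgALKBH5. In normalised counts SLC7A6 had 54.3 and 38.1 CPM in the controls, 59.3 in sgPKA and 50.6 in sgALKBH5, so sgALKBH5 then lay between the controls. SLC3A2 (CD98hc), the heavy chain and no member of these families, was at 204 and 179 TPM in the controls, 268 in sgPKA and 184 in sgALKBH5. SLC3A2 per summed light chain TPM (SLC7A5, SLC7A6 and SLC7A7) was 0.771 and 0.873 in the controls, 0.713 in sgPKA and 0.738 in sgALKBH5, so it was below both controls in both knockouts. The alternative heavy chain SLC3A1 was at 0.110 to 0.205 TPM. SLC7A7 (y+LAT1) was at 1.72 and 2.37 TPM in the controls, 1.39 in sgPKA and 1.02 in sgALKBH5, from 16 to 43 counts. SLC7A11, the cystine exchanger left out of the members, was at 4.19 and 3.10 TPM in the controls, 11.0 in sgPKA and 2.97 in sgALKBH5.

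Among cationic carriers of SLC7, which take up arginine and lysine, SLC7A1 (CAT1) was at 68.9 and 45.2 TPM in the controls, 70.5 in sgPKA and 72.0 in sgALKBH5. Both knockouts were close to control 1, and control 2 was the low library. SLC7A2 (CAT2) was at 13.4 and 15.9 TPM in the controls, 20.9 in sgPKA and 10.7 in sgALKBH5. Its knockout libraries lay on opposite sides of the controls, with a log2 fold change between them of 0.76 ± 0.28 (SE) and an adjusted p of 0.431 by edgeR.

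The small neutral exchangers of SLC1 were led by SLC1A5 (ASCT2, chr19:46774883-46788594), the sodium-dependent glutamine exchanger and the most abundant member by mean TPM. It was at 292 and 298 TPM in the controls, 252 in sgPKA and 266 in sgALKBH5. The controls were close to each other and both knockouts were lower, with log2 fold changes of -0.44 ± 0.21 (SE) in sgPKA and -0.22 ± 0.21 in sgALKBH5, and adjusted p of 0.532 and 0.998 by edgeR. SLC1A4 (ASCT1), which prefers alanine, serine and cysteine, was at 14.7 and 10.3 TPM in the controls, 21.9 in sgPKA and 17.6 in sgALKBH5. SLC1A4 and SLC1A5 both hold the TGATGNAA element near a start and lay on opposite sides of the controls in sgPKA, at log2 fold changes of 0.63 and -0.44. Of the other members with the element, SLC7A1 was above both controls in sgPKA in TPM but between them in normalised counts, SLC1A3 was above both on either scale, and SLC38A1 was between the controls in TPM and below both in normalised counts.

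Glutamate and aspartate uptake is the task of the other SLC1 members. SLC1A3 (EAAT1), the only one of them with a mean TPM of at least 1, was at 11.4 and 10.1 TPM in the controls, 11.6 in sgPKA and 12.8 in sgALKBH5. SLC1A1 (EAAT3), which also takes up cysteine, had 34 and 20 counts in the controls, 0 in sgPKA and 83 in sgALKBH5. Taking 3 counts as the most that 0 allows in that library, its level of normalised counts was at least 7.43-fold lower than the control mean of 1.49 CPM, with an adjusted p of 0.527 by edgeR. SLC1A2 had at most 3 counts in a library.

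In SLC6 the carriers of small osmolytes were the abundant ones. SLC6A8, the creatine carrier, was at 121 and 119 TPM in the controls, 96.8 in sgPKA and 98.5 in sgALKBH5. Its controls were within 2 TPM of each other and both knockouts were lower, with log2 fold changes of -0.49 ± 0.21 (SE) and -0.34 ± 0.21, and adjusted p of 0.527 and 0.998 by edgeR. SLC6A6, the taurine carrier, was at 63.6 and 75.7 TPM in the controls, 81.9 in sgPKA and 65.7 in sgALKBH5. SLC6A9 (GlyT1), a glycine carrier, was at 14.5 and 3.80 TPM in the controls, 11.7 in sgPKA and 15.1 in sgALKBH5. Control 2 was the low library, and the controls were 3.83-fold apart.

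The sodium-coupled neutral carriers of SLC38 were led by SLC38A2 (SNAT2), which takes up alanine and glutamine and rises in amino acid shortage. It was at 105 and 65.0 TPM in the controls, 129 in sgPKA and 75.7 in sgALKBH5. SLC38A1 (SNAT1) was at 27.6 and 8.01 TPM in the controls, 8.13 in sgPKA and 10.7 in sgALKBH5. Control 1 alone was high, 3.45-fold above control 2, and both knockouts were near control 2. SLC38A10 was at 63.4 and 69.6 TPM in the controls, 68.7 in sgPKA and 65.7 in sgALKBH5, with no library apart from the rest. SLC38A9, the lysosomal arginine sensor of the mTORC1 pathway, was at 12.4 and 9.46 TPM in the controls, 15.0 in sgPKA and 18.5 in sgALKBH5. SLC38A7, a lysosomal glutamine carrier, was at 12.2 and 7.59 TPM in the controls, 17.4 in sgPKA and 11.6 in sgALKBH5. SLC38A6 was at 11.2 and 7.79 TPM in the controls, 12.8 in sgPKA and 9.77 in sgALKBH5. For all of these except SLC38A10, control 2 was lower than control 1, as it was for 16 of the 23 members (69.6%) and for 58.6% of all genes.

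The carriers of SLC36 were low. SLC36A1 (PAT1), which exports small amino acids from lysosomes, was at 9.72 and 7.39 TPM in the controls, 8.69 in sgPKA and 10.4 in sgALKBH5. SLC36A4 (PAT4) was at 5.75 and 4.64 TPM in the controls, 2.73 in sgPKA and 8.85 in sgALKBH5, so the knockouts lay on opposite sides of the controls. In SLC43 the remaining member was SLC43A2 (LAT4), an exporter of large neutral amino acids, at 6.99 and 4.84 TPM in the controls, 5.42 in sgPKA and 7.45 in sgALKBH5.

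**Figure D4:**
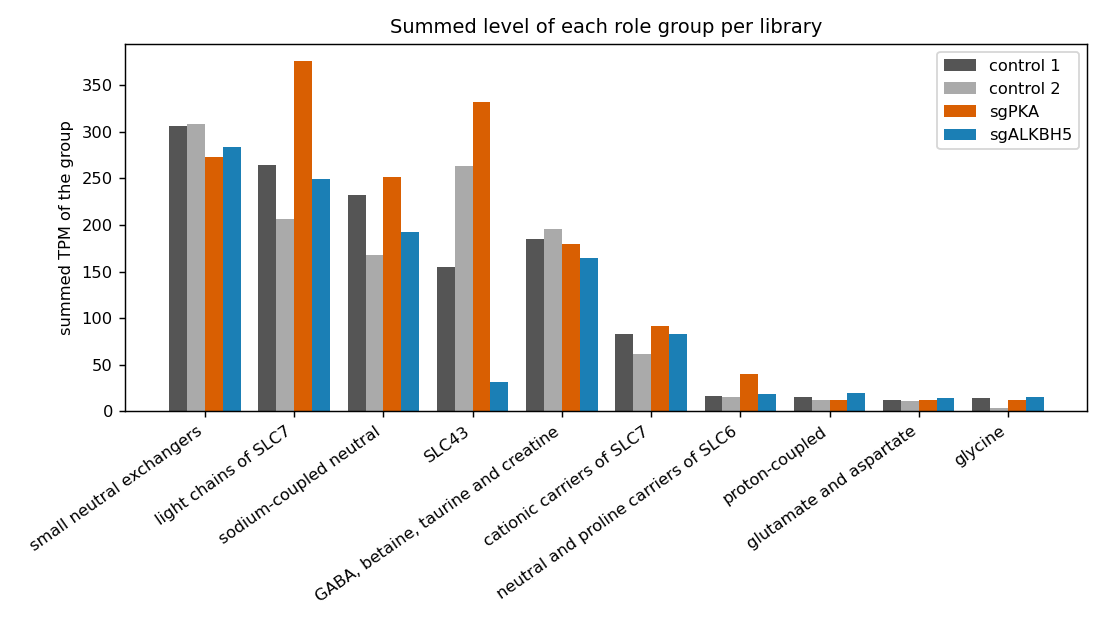
Summed TPM of each role group of the members per library (bars, axis from 0). The SLC43 bar is 31.7 TPM in sgALKBH5 against 155 and 263 in the controls and 332 in sgPKA, and the bar of the SLC7 light chains is 376 in sgPKA against 264 and 206 in the controls and 250 in sgALKBH5.

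For a few members the count and TPM scales gave different pictures. The ratio of counts to TPM, set to 1 in control 1, depends on which transcripts of a gene the reads were assigned to. Its range was taken over the 9169 genes with at least 100 counts in every library, while members entered from 50 counts. SLC36A4, with 95 counts in control 1 and 73 in sgPKA, was not among the 9169. For 90% of these genes the ratio lay between 0.870 and 1.10 in control 2, 0.912 and 1.16 in sgPKA, and 0.897 and 1.10 in sgALKBH5. SLC36A4 was at 1.25, 2.18 and 0.864 in these libraries, and SLC1A3 at 0.630, 1.35 and 0.739, a comparison chosen after the values were seen. SLC36A4 had normalised counts of 5.22 and 5.61 CPM in the controls, 4.88 in sgPKA and 6.87 in sgALKBH5, a far smaller spread than in TPM. Its difference in sgPKA was -0.73 on the log2(TPM + 1) scale and -0.15 ± 0.43 (SE) as a log2 fold change of counts, with an adjusted p of 0.888 by edgeR. SLC1A3 had 18.1 and 10.8 CPM in the controls, 22.6 in sgPKA and 14.9 in sgALKBH5, and its sgPKA difference was 0.11 in log2(TPM + 1) and 0.64 ± 0.40 (SE) in counts, with an adjusted p of 0.568 by edgeR. SLC7A6 was outside the range in both knockouts, at 0.815 and 0.830. Its sgPKA difference was 0.84 in log2(TPM + 1) and 0.36 ± 0.30 (SE) in counts. SLC43A3 was at 0.879 in sgALKBH5, just below the range, and SLC6A15 was at 1.03 in both knockouts, inside it.

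**Figure D5:**
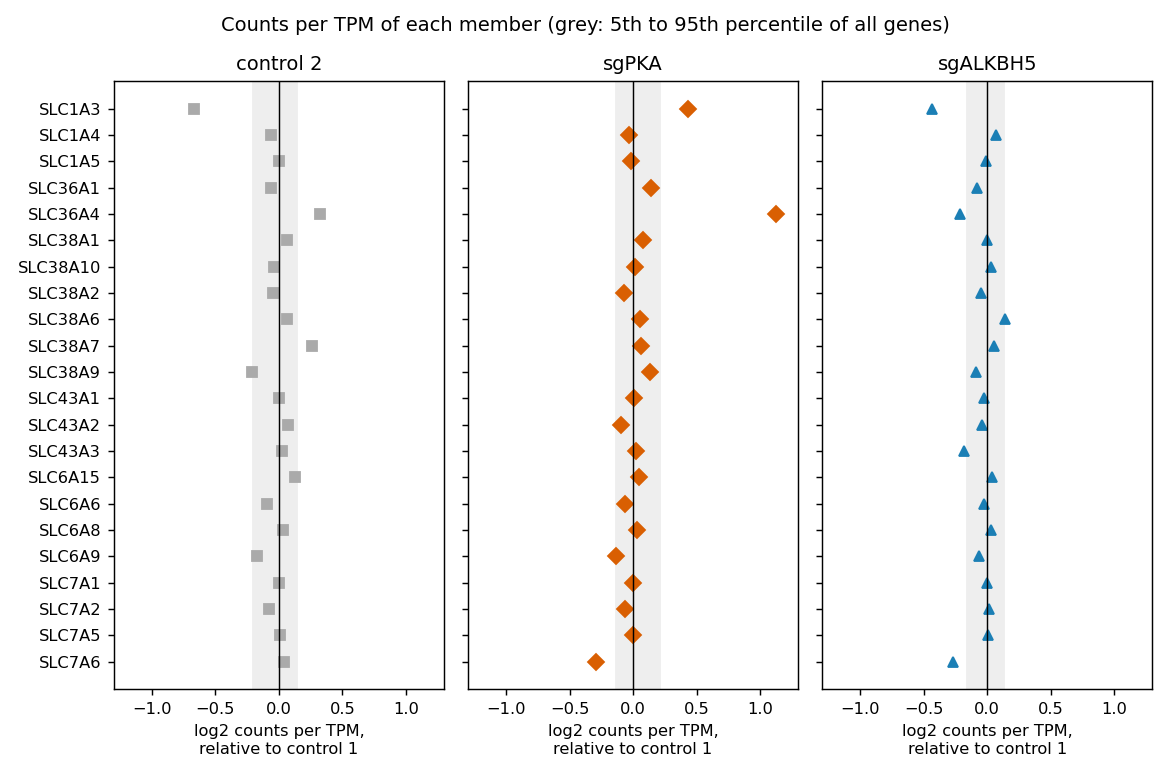
Counts per TPM of each member with a mean TPM of at least 5, relative to control 1 on a log2 axis, with 1 panel for control 2 and for each knockout. The grey range covers 90% of the 9169 genes with at least 100 counts in every library. SLC36A4 and SLC1A3 stand outside the grey range in all 3 panels.

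The remaining members had a mean TPM below 1, most of them with few or no counts. Besides SLC1A1 and SLC1A2, they included SLC7A8 (11 and 42 counts in the controls, 2 in sgPKA and 5 in sgALKBH5), SLC38A5 (12 and 1, 1 and 16), SLC6A12 (3 to 8 counts per library), SLC38A3 (at most 5) and 7 genes with at most 2 counts in any library, namely SLC1A7, SLC36A2, SLC38A4, SLC6A4, SLC6A14, SLC6A16 and SLC7A14. SLC7A8 and SLC38A5 were tested by edgeR and not called, and the genes named after SLC38A5 did not pass its filter on low counts. A count of 0 allows up to 3 counts, which is 0.165 and 0.167 CPM in the controls, 0.201 in sgPKA and 0.118 in sgALKBH5.

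Genes that act with these carriers were compared through lists. Of 28 genes of amino acid sensing to mTORC1, the kinase complex that couples nutrients to growth, 27 were in the table and had a mean TPM of at least 1. In sgPKA 17 of the 27 were above both controls and 5 below, and in sgALKBH5 9 were above and 11 below. These are 63.0% and 18.5% in sgPKA, where all genes had 50.3% and 26.9%, and 33.3% and 40.7% in sgALKBH5, where all genes had 39.1% and 27.5%. None passed the 2-fold rule, whose log2(TPM + 1) scale understates changes of low genes. SESN3, an example of such a gene given outside the naming rule of the lists, was at 0.719 and 1.57 TPM in the controls. It was at 2.83 in sgPKA and 0.048 in sgALKBH5. Its log2 fold change of counts in sgALKBH5 was -4.52 ± 1.13 (SE). That rested on 5 counts there, beside 39 in control 1 and 129 in control 2. It was -5.14 without control 1 and -3.41 without control 2. Normalised counts were a scale added for the lists after their values were seen. On it 13 of the 27 were above and 11 below in sgPKA, where all genes had 39.7% and 38.3%. In sgALKBH5 6 were above and 13 below, where all genes had 33.0% and 34.3%. LAMTOR5 and LAMTOR1, subunits of the lysosomal Ragulator scaffold, were the most abundant, and LAMTOR1 was at 162 and 167 TPM in the controls, 161 in sgPKA and 150 in sgALKBH5. LAMTOR5 was at 151 and 180 TPM in the controls, 164 in sgPKA and 168 in sgALKBH5, between the controls in both knockouts. Of 12 genes of the integrated stress response and MYC regulation, 10 (83.3%) were above both controls in sgPKA and 0 below, and in sgALKBH5 4 (33.3%) were above and 5 (41.7%) below, beside the same shares of all genes. In normalised counts 7 of the 12 were above in sgPKA and 0 below, where all genes had 39.7% and 38.3%. TRIB3, a pseudokinase induced by ATF4, was past the 2-fold rule in sgPKA, at 76.8 and 70.1 TPM in the controls, 173 in sgPKA and 51.0 in sgALKBH5. ATF4 itself was at 683 and 449 TPM in the controls, 900.0 in sgPKA and 525 in sgALKBH5, and the ubiquitin ligase gene NEDD4L was at 222 and 195 TPM in the controls, 229 in sgPKA and 186 in sgALKBH5.

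Among 9 members described in the literature as ATF4 targets, 8 had a mean TPM of at least 1. In sgPKA 4 of the 8 were above both controls and 2 below, beside 50.3% and 26.9% of all genes. In sgALKBH5 4 were above and 1 below, beside 39.1% and 27.5% of all genes. In normalised counts 3 of the 8 were above and 2 below in sgPKA, where all genes had 39.7% and 38.3%. On that scale 3 were above and 1 below in sgALKBH5, where all genes had 33.0% and 34.3%. The median difference in log2(TPM + 1) was 0.44 in sgPKA and 0.22 in sgALKBH5, and the medians of all genes were 0.15 and 0.05. As a log2 fold change of counts by edgeR the median in sgPKA was 0.11, and it was 0.51 without control 1 and -0.016 without control 2, so its direction rested on the choice of control. In sgALKBH5 the median of counts was 0.15, and it was 0.22 and 0.0091 without control 1 and control 2. Of 16 other amino acid carriers of membranes, 14 had a mean TPM of at least 1, and in each knockout 7 of the 14 were above both controls and 2 (14.3%) below, beside 50.3% and 26.9% of all genes in sgPKA and 39.1% and 27.5% in sgALKBH5. SLC25A22, a mitochondrial glutamate carrier, was at 101 and 76.2 TPM in the controls, 58.6 in sgPKA and 98.9 in sgALKBH5. SLC25A38, a mitochondrial glycine carrier, was at 53.6 and 38.2 TPM in the controls, 50.3 in sgPKA and 59.8 in sgALKBH5. SLC15A3, a lysosomal peptide and histidine carrier, was past the 2-fold rule in sgALKBH5, at 1.83 and 0.314 TPM in the controls, 0.929 in sgPKA and 7.03 in sgALKBH5, and its controls were themselves more than 2-fold apart.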

How the data were processed

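The members and the lists of related genes were chosen with earlier results of these data known. For each gene and each of the 4 libraries, the authors deposited an expected count and a TPM value in 1 table, per the file headers. Per the submitters' processing notes, the build was GRCh38.p14 and the tools included RSEM, StringTie 1.3.1, HISAT2 2.1.0 and fastp 0.18.0, with no role stated. The annotation release and the use of strand in counting are not given in the sources used here. Hence overlapping and antisense genes cannot be told apart. Between 10.6% and 12.7% of the deposited expected counts per library were not whole. They were rounded for the tests.

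All 4 libraries entered 1 fit of 3 groups in edgeR 4.0.16 (quasi-likelihood test, R 4.3.3, TMM normalization, filterByExpr, Benjamini-Hochberg adjustment at 0.05 over 13061 genes). Its 1 residual degree of freedom came from the 2 controls, with the single library of a knockout taken to vary as they do, so p-values measure only the spread between these samples. The biological coefficient of variation was 0.347. Normalised counts are CPM over TMM-scaled totals. The rule without a test required a difference of at least 1 in log2(TPM + 1), the same way from both controls, and a mean TPM of 1 or more; such differences understate changes of low genes. Members with a mean TPM of 5 or more, members past that rule, and in each other list its 2 most abundant genes and those past the rule were named with values; the remaining members are given by counts, except 1 that is not reported here. The script was tested on simulated data. Alternatives were the size factors and Wald test of DESeq2 1.42.0, limma 3.58.1, other filters and pseudocounts, rescaled TPM, and each control left out. Positions and promoter sequences came from RefSeq on GRCh38.p14, joined by symbol. Intervals and floors cover counting error only.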

Additional observations from a re-analysis of the deposited data

Results flagged for a closer look

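For 3 of the 23 members with a mean TPM of at least 1, both controls lay between the knockouts in TPM, with sgPKA on one side and sgALKBH5 on the other. The share of all genes with this pattern is not given here, so the count is not read as a trait of the members. On the log2(TPM + 1) scale limma called 0 of 11629 genes between the knockouts, with 1329 at an unadjusted p under 0.05, and each knockout had 1 library. SLC43A3 was 5.71 higher in sgPKA than in sgALKBH5 in log2(TPM + 1), and on counts the log2 fold change between the knockouts was 6.06 ± 0.65 (SE), with an adjusted p of 0.424 by edgeR. SLC7A2, the cationic amino acid carrier CAT2, was 0.90 higher in sgPKA. SLC36A4 (PAT4) had a difference of -1.40 (sgPKA minus sgALKBH5). Its normalised counts of 4.88 CPM in sgPKA and 6.87 in sgALKBH5 were closer together than its TPM values of 2.73 and 8.85.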

How the results depend on the processing

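No paired analysis was possible because each knockout has 1 library. edgeR called 0 genes in each comparison with the size factors of DESeq2, without the filter and, for each knockout against the controls, with only the 3 libraries compared; limma also called 0 with either pseudocount. DESeq2 called 116 genes in sgPKA (13 higher, 103 lower), 40 in sgALKBH5 (15 and 25) and 318 between the knockouts (81 and 237). The rule without a test took the same member in each knockout with a pseudocount of 0.1, other TPM minimums and rescaled TPM. It took 3 to 5 members in sgPKA with 1 control left out (SLC6A15, with SLC1A4, SLC38A7, SLC6A9 and SLC7A6 higher without control 1, or SLC43A3 higher and SLC38A1 lower without control 2). In sgALKBH5 it took 2 and 2 (SLC43A3, with SLC6A9 higher without control 1 or SLC38A1 lower without control 2). No edgeR fit could be made without a control, since no residual degree of freedom is left.

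The direction of 25 named genes was kept by 25 in sgALKBH5 and 24 in sgPKA with the size factors of DESeq2 and as log2(TPM + 1) differences. Exceptions in sgPKA were SLC36A1 (-0.0030 with those size factors) and SLC38A10 (0.048 in log2(TPM + 1)). Without control 1, 21 kept it in sgALKBH5 and 24 in sgPKA; without control 2, 16 and 21 did. Values that turned are given as their range over both. In sgPKA these were SLC36A1 -0.17 to 0.20, SLC43A1 -0.58 to 0.066, SLC6A6 -0.093 to 0.15, SLC6A9 -0.59 to 1.42 and SLC7A1 -0.11 to 0.41. In sgALKBH5 they were GPX4 -0.064 to 0.18, PRKACA -0.047 to 0.24, SLC1A3 -0.29 to 0.47, SLC38A1 -1.39 to 0.24, SLC38A10 -0.12 to 0.067, SLC38A2 -0.54 to 0.11, SLC38A6 -0.073 to 0.30, SLC38A7 -0.035 to 0.29, SLC43A1 -0.57 to 0.082, SLC6A6 -0.24 to 0.0041, SLC6A9 -0.027 to 1.99, SLC7A5 -0.11 to 0.14 and SLC7A6 -0.10 to 0.41. The causes were not tested.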
